A study of Homo sapiens with 6 samples.

Results

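The 10 genes described here encode transcription factors and regulators of the immediate early response: the Jun family members JUN, JUNB and JUND, the Fos family members FOS, FOSB and FOSL2, and ATF3, EGR1, IER2 and KLF6. They were chosen by name, as the rows of the deposited count table whose Ensembl transcript ID belongs to 1 of these genes in GENCODE release 29. All 10 had a row among the 22279 rows of the table, and 9 had enough counts to be tested, EGR1 being the exception. The libraries came from LNCaP, an established human cell line from prostate cancer that responds to androgen. In 3 libraries (shRB) the cells carried a hairpin against RB, the retinoblastoma protein that restrains E2F transcription factors, and in 3 (shCON) a control hairpin. All cells of both groups had spent 72 h in a treatment labelled CDT, listed as a cell cycle arrest treatment and described for the series as hormone deficient. Only 1 hairpin label stands for each group, and loss of RB cannot be told apart from other effects of that hairpin or cell population.

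Immediate early genes are those that a cell transcribes within minutes of a growth factor or stress signal, without making new protein first. Signals reach them through MAP kinases, which act on factors already bound at their promoters, and the mRNAs of the strongest responders are short-lived. Jun and Fos proteins pair through leucine zippers to form AP-1, which binds the TRE and CRE sequences. Jun proteins can also pair among themselves, whereas Fos proteins need a Jun partner, and the makeup of AP-1 depends on which members a cell makes.

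The counting depth was 6115310 to 20091488 counts per shCON library and 9780579 to 10898768 per shRB library. RB1, the targeted gene, went from a mean of 54.6 ± 1.93 CPM in the controls to 5.01 ± 1.06 CPM with the knockdown (SD, n = 3), and each library matched its label. CPM is the count relative to a library total scaled by TMM, per 1000000 counts. All 10 luminal prostate markers had counts in every library, with summed levels of 5070 to 5358 CPM in shCON and 4798 to 5105 CPM in shRB. The defining leukocyte genes PTPRC and CD3E, the endothelial genes PECAM1, CDH5 and KDR and the basal keratin gene KRT5 were at 0 in all 6 libraries. The other markers of these types were low: the summed basal markers were 0.301 to 0.638 CPM in shCON and 0 to 0.106 CPM in shRB, with KRT14 at 19 and 1 counts in all. The summed leukocyte markers, nearly all CD68, were 5.71 to 7.41 and 5.21 to 5.41 CPM, with LYZ at 12 and 3 counts. The summed stromal markers, mostly VIM and COL1A1, were 41.7 to 49.1 CPM in shCON and 21.6 to 25.3 CPM in shRB. COL1A2 and PDGFRA were at 0. VIM had means of 25.3 ± 4.15 and 8.47 ± 2.09 CPM, and COL1A1 17.4 ± 1.69 and 13.5 ± 1.76 CPM (SD, n = 3). The summed endothelial markers, nearly all VWF, were 8.16 to 10.7 CPM in shCON and 1.73 to 3.71 CPM in shRB. The part of these differences in the results was not tested. In RNA from whole cultures, fewer cells of a type and less RNA per cell cannot be told apart. Libraries of both groups deviated from their group mean along transcript GC content (Spearman correlation across 11674 genes, which are not independent replicates). Replicate 2 was the high one in each group, at 0.522 among the controls (−0.506 for replicate 1, −0.0865 for replicate 3) and 0.687 with the knockdown (−0.504 and −0.539). Replicates may be technical, since the labels name no separate cultures, and p-values then measure only the spread between these libraries.

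Short stretches of the members' promoters are shown because they hold sequences through which immediate early genes are known to be switched on. They were read 5′ to 3′ on the gene's strand from RefSeq windows of build GRCh38.p14, 250 bases before to 50 after each start site, and the capitals mark the motif.
JUN, TGACATCA, a variant of the CRE, chr1:58784096-58784125, minus strand: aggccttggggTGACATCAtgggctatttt
KLF6, the same letters, chr10:3785363-3785392, minus strand: ttggccggagcTGACATCAtcggcgcgcag
JUND, CRE, chr19:18281804-18281833, minus strand: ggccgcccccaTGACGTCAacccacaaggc
FOSL2, TRE, chr2:28392851-28392880, plus strand: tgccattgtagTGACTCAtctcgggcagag
EGR1, CArG box, chr5:138465364-138465393, plus strand: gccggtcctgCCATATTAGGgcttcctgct
EGR1, a further CArG box, chr5:138465386-138465415, plus strand: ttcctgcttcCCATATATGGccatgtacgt

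The windows of 9 members were searched on both strands, and bases more than 250 before a start site were not searched. ATF3 was left out, since neither of its RefSeq windows started within 1000 bases of the counted transcript. The letters TGANTCA, with any base at N, of which the TRE is a narrower case, were found in 1 of the 9 windows. That was FOSL2, from base 5 after the start, and 7.71% of 35116 promoters held these letters. The CRE, TGACGTCA, was found in 1 (JUND, from base −200) and in 1.85% of promoters. The letters TGACATCA, added to the search after the JUN promoter was seen, were in 2 windows (JUN from base −67, KLF6 from base −172) and in 2.61% of promoters. The CArG box, to which serum response factor binds, was in the EGR1 window only, from bases −105 and −83, and in 1.29% of promoters. The EGR site, GCGNGGGCG, was in the windows of EGR1 and KLF6 and in 9.43% of promoters. The ETS letters CCGGAAGT (4.14% of promoters) and the E2F letters TTTGGCGC (0.652%) and TTTCCCGC (1.63%) were in 0 of the 9 windows. These are matches of letters and say nothing of binding. The JUN window lies inside the counted JUN transcript, whose start in GENCODE is 280 bases further upstream.

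Among the 9 tested genes, 1 passed as higher in shRB (JUN) and 1 as lower (FOSL2), and 7 did not pass. The test was edgeR's quasi-likelihood test over all 11712 tested rows, with Benjamini-Hochberg adjustment and a threshold of 0.05. Over all tested rows, 12.8% passed as higher and 12.5% as lower, so that the members' counts were near the background. Their median log2 fold change was 0.19, against −0.006 over all tested rows. Without shRB 2 the median was 0.08, and 2 members passed as higher.

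**Figure D1:**
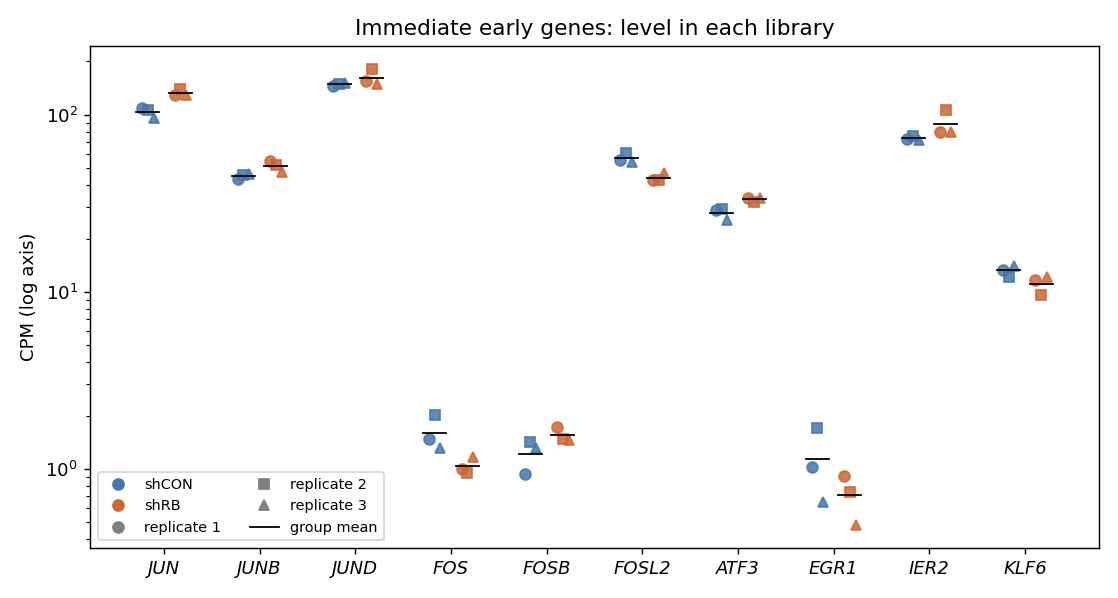
Level of each of the 10 genes in each library, in CPM on a log axis; points are libraries, with shape for the replicate number, and bars are group means (n = 3). FOS, FOSB and EGR1 lie near 1 CPM, and the other 7 genes between 9.65 and 181.9 CPM.

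JUN, the founding member of AP-1 and a target of its own product, rose in shRB. The 3 controls read 108.9, 105.8 and 96.3 CPM, and the 3 knockdown libraries 130.1, 139.5 and 128.6 CPM, in replicate order. Every shRB library lay above every shCON library. The mean went from 103.7 ± 6.57 to 132.7 ± 5.91 CPM (SD, n = 3), a 1.28-fold change (log2 fold change 0.35 ± 0.08, SE; edgeR adjusted p = 0.0049). JUN passed in each of 15 alternative analyses, with log2 fold changes of 0.28 to 0.39 and adjusted p of 0.00016 to 0.037. The 20 tested genes next to JUN in order along chromosome 1, 10 on each side, had a median of −0.15.

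JUNB, which is often a weaker activator than JUN and can oppose it, read 43.6, 45.5 and 46.5 CPM in shCON and 54.8, 52.3 and 47.4 CPM in shRB. The groups did not overlap, but shRB 3 was only just above the highest control, and the difference did not pass (0.19 ± 0.09; edgeR adjusted p = 0.14). The gene HOOK2 on the opposite strand covers 14.2% of the JUNB exon, and how strand was used in counting is not known here, so the JUNB count is uncertain. JUND, the Jun member with the steadiest expression in most cells, read 144.6, 149.5 and 151.0 CPM in shCON and 154.4, 181.9 and 149.2 CPM in shRB. Its groups overlapped, with shRB 2 the highest library and shRB 3 inside the control range (0.13 ± 0.08; edgeR adjusted p = 0.29).

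JUND has the most GC-rich transcript of the 10 (69.7%, against a median of 49.7% over tested rows), and it was 0.17 above the shRB mean in shRB 2 on the log2 scale. Without shRB 2 its log2 fold change was 0.04. JUN, at 56.7% GC, deviated by 0.07 in that library.

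JUN was also set against its relatives by the ratios of counts within each library. The log2 ratio of JUN to JUNB had means of 1.20 ± 0.14 with the control hairpin and 1.37 ± 0.10 with the RB hairpin (SD, n = 3; exact two-sided permutation test, p = 0.20). The ratio of JUN to JUND was −0.52 ± 0.12 and −0.28 ± 0.09 (exact permutation p = 0.10, the smallest that 3 against 3 allows). Adjusted over the 2 ratios, both exact p-values were 0.20. With 3 libraries a group this test cannot reach 0.05, so it does not settle whether JUN differed from JUNB or JUND. The JUN to JUND ratio did not overlap between the groups (−0.41, −0.50 and −0.65 in the controls, −0.25, −0.38 and −0.21 with the knockdown), whereas the JUN to JUNB ratio did.

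FOSL2, which encodes the Fos family member FRA2, fell in shRB. It read 55.6, 60.9 and 54.2 CPM in shCON and 43.0, 42.8 and 46.6 CPM in shRB, with a clear gap between the groups. The mean went from 56.9 ± 3.56 to 44.2 ± 2.14 CPM (SD, n = 3; log2 fold change −0.37 ± 0.09, SE; edgeR adjusted p = 0.0085), which is 0.776 of the control level. FOSL2 passed in each of the 15 alternatives, with log2 fold changes of −0.42 to −0.31, and came closest to the threshold without shCON 2 (adjusted p = 0.049). The 20 tested genes next to it in order along chromosome 2, 10 on each side, had a median of −0.10. The JUN to FOSL2 ratio of counts was 1.82 in shCON and 3.01 in shRB, as geometric means, and was not tested separately, since JUN and FOSL2 passed in opposite directions.

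FOS, the classic partner of JUN, was barely detected in these cells. Its counts were 30, 20 and 8 in the controls and 11, 9 and 12 with the knockdown, which is 1.59 ± 0.367 and 1.04 ± 0.107 CPM (SD, n = 3). The groups did not overlap in CPM, with shRB the lower, and the difference did not pass (−0.61 ± 0.29; edgeR adjusted p = 0.14). Over pooled counts the ratio of shRB to shCON was 0.654, with an exact 95% interval of 0.411 to 1.02 that covers counting error only.

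FOSB, whose product forms AP-1 with Jun proteins much as FOS does, had 19, 14 and 8 counts in shCON and 19, 14 and 15 in shRB (1.21 ± 0.250 and 1.55 ± 0.153 CPM; SD, n = 3). Its lowest shRB library lay just above its highest shCON library (0.45 ± 0.29; edgeR adjusted p = 0.28). The exact 95% counting interval of its pooled ratio was 0.895 to 2.16, which includes 1, and no difference in FOSB was detected at this depth. FOSL1, the remaining Fos gene and a member of a related list, had at most 7 counts in any library and was not tested.

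**Figure D2:**
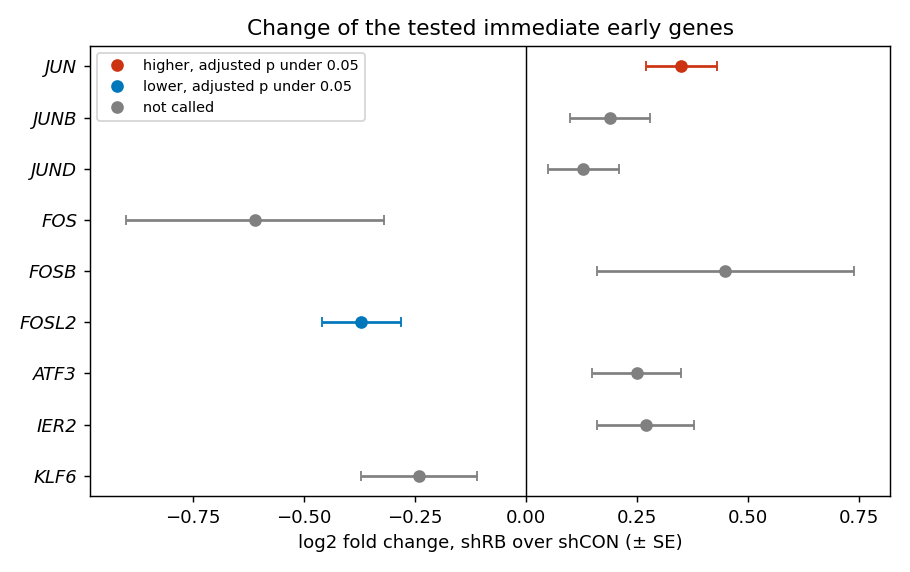
Log2 fold change of shRB over shCON for the 9 tested genes, with SE (edgeR, n = 3 per group); red passed as higher, blue as lower and grey did not pass. JUN is at 0.35 and FOSL2 at −0.37, and the low-count genes FOS and FOSB have the widest errors.

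ATF3, a stress-induced partner of Jun proteins that can repress transcription, read 28.8, 29.4 and 25.3 CPM in shCON and 34.0, 32.2 and 34.0 CPM in shRB. All shRB libraries were above all controls. The means were 27.8 ± 2.22 and 33.4 ± 1.03 CPM (SD, n = 3), and the difference did not pass (0.25 ± 0.10; edgeR adjusted p = 0.075). Without shRB 2 it passed (0.28; adjusted p = 0.021), and so it did with a correction for transcript GC content (0.22; adjusted p = 0.044).

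EGR1, a zinc finger factor induced by the same MAP kinase signals as FOS, had 21, 17 and 4 counts in shCON and 10, 7 and 5 in shRB. The groups overlapped, at 1.13 ± 0.534 and 0.711 ± 0.215 CPM (SD, n = 3), and the row fell under the filter on low counts. With no filter its log2 fold change was −0.69 ± 0.41 (SE; edgeR adjusted p = 0.26). The pooled ratio was 0.621, with an exact 95% counting interval of 0.353 to 1.06.

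IER2, a nuclear protein of the immediate early response, read 73.2, 76.0 and 71.8 CPM in shCON and 79.4, 106.7 and 80.4 CPM in shRB. The groups did not overlap, and shRB 2 was far above the other libraries. The difference did not pass (73.7 ± 2.12 to 88.9 ± 15.5 CPM; 0.27 ± 0.11; edgeR adjusted p = 0.083). Its transcript is 62.9% GC, and its deviation in shRB 2 was 0.28 on the log2 scale. Without shRB 2 the value was 0.12 (adjusted p = 0.20), whereas with the GC correction, which kept all libraries, it was 0.21 and passed (adjusted p = 0.012). A gene on the opposite strand, AC011446.2, covers 45.4% of the IER2 exons, so the count is uncertain.

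KLF6, a zinc finger factor studied as a growth suppressor in prostate cancer, read 13.3, 12.1 and 14.0 CPM in shCON and 11.6, 9.65 and 12.1 CPM in shRB. The highest shRB library was just under the lowest control, and the difference did not pass (−0.24 ± 0.13; edgeR adjusted p = 0.21). Among the 9 tested members, the groups did not overlap in 8: 5 higher (JUN, JUNB, FOSB, ATF3, IER2) and 3 lower in shRB (FOS, FOSL2, KLF6). Over all tested rows, 21.0% had non-overlapping groups with shRB higher and 20.2% with shRB lower.

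With the GC correction, 3 of the 9 members passed as higher (JUN, ATF3, IER2) and FOSL2 as lower. That correction called 19.3% of all tested rows higher and 19.8% lower. Without shRB 2, JUN and ATF3 passed as higher and FOSL2 as lower, against 17.5% and 16.5% of tested rows.

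**Figure D3:**
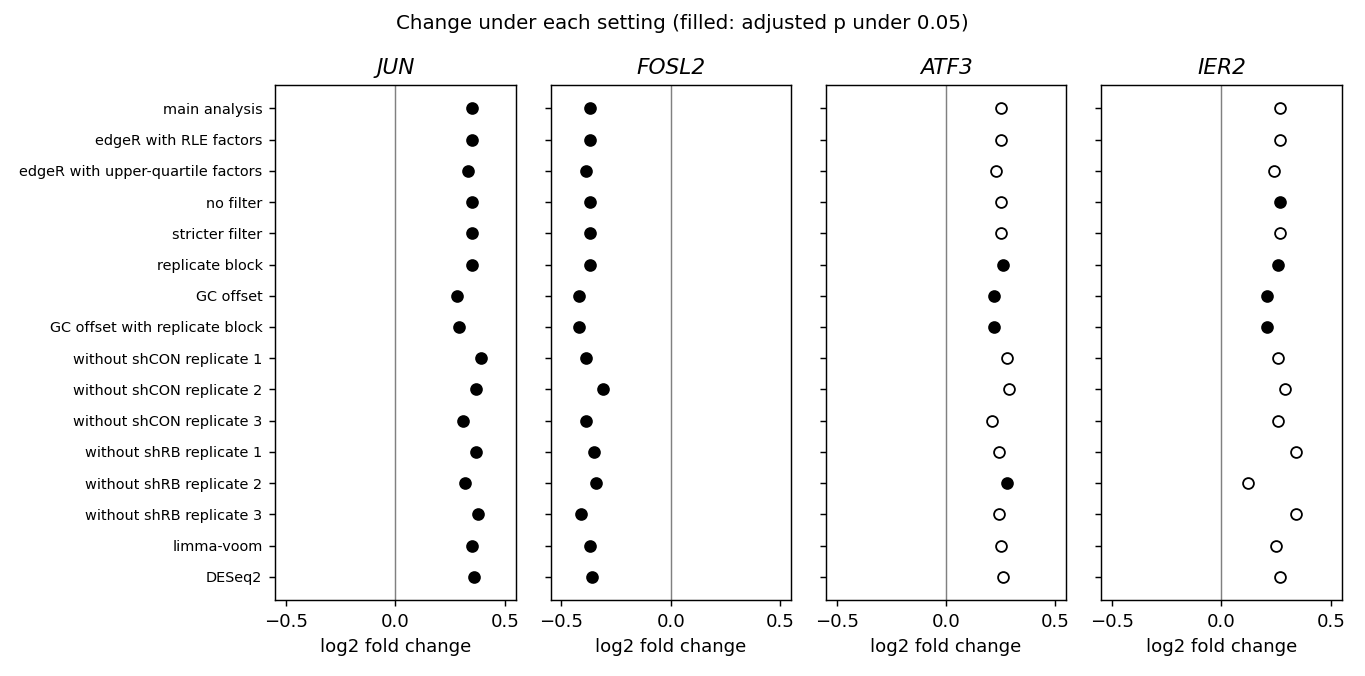
Log2 fold change (horizontal axis) of JUN, FOSL2, ATF3 and IER2 in the main analysis and 15 alternatives (rows); filled points have an adjusted p under 0.05. JUN and FOSL2 are filled in every row, whereas ATF3 and IER2 are filled in 4 alternatives each, and IER2 falls to 0.12 without shRB 2.

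Levels of different genes were compared per kilobase of the counted transcript. In shCON the order was JUND (79.6 ± 1.79 CPM per kilobase), IER2 (35.3 ± 1.02), JUN (29.3 ± 1.86), JUNB (24.8 ± 0.827), ATF3 (13.7 ± 1.09), FOSL2 (8.48 ± 0.530), KLF6 (2.83 ± 0.206), FOS (0.739 ± 0.170), EGR1 (0.360 ± 0.170) and FOSB (0.322 ± 0.0661; SD, n = 3). Only EGR1 and FOSB overlapped as neighbours in that order. In shRB the first 8 genes kept the same order, from JUND at 86.9 ± 9.42 to FOS at 0.481 ± 0.0496 CPM per kilobase. There IER2 (42.6 ± 7.43) overlapped JUN (37.5 ± 1.67), and FOS overlapped FOSB (0.412 ± 0.0404).

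Within the Jun family, JUND made up most of the counts per kilobase. Its share in replicates 1 to 3 was 58.7%, 59.4% and 60.6% for the controls and 55.4%, 58.9% and 56.2% for the knockdown, and the groups overlapped. The JUN share was 23.3%, 22.1% and 20.3% in shCON and 24.5%, 23.8% and 25.5% in shRB, with all shRB libraries above all controls. The JUNB share was 18.6% in each group on average. JUN, JUNB and JUND transcripts each consist of 1 exon, whereas the other members have 2 to 4.

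Within the Fos family, FOSL2 held 86.5% ± 0.997 of the counts per kilobase in shCON and 86.0% ± 1.43 in shRB (SD, n = 3), FOS 7.48% ± 1.18 and 6.27% ± 0.244, and FOSB 3.27% ± 0.579 and 5.40% ± 0.731. FOSL1 made up the rest. FOSL2 was thus the most abundant Fos mRNA of these cells, and JUN ranked after JUND among the Jun mRNAs. The shares were not tested.

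**Figure D4:**
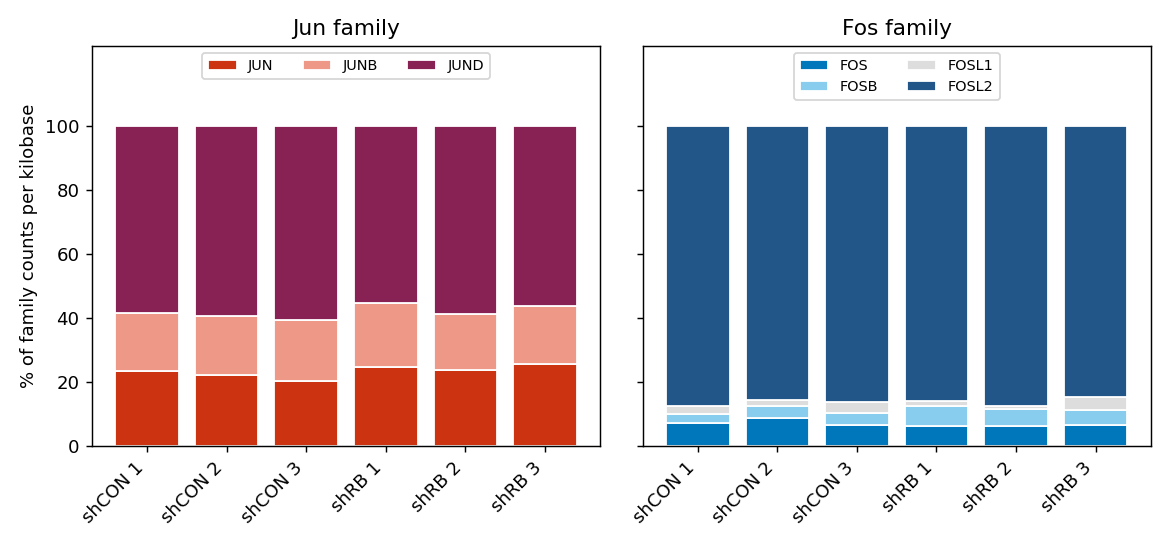
Share of each member in the counts per kilobase of its family (percent, stacked bars) in each of the 6 libraries, Jun family on the left and Fos family on the right. JUND takes 55.4% to 60.6% of the Jun family and FOSL2 most of the Fos family in every library.

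Genes whose levels followed a member most closely were taken as the 3 genes with the highest Pearson r of log2 CPM over the 6 libraries, among 8952 genes of at least 10 CPM on average. For JUN these were MAPKAP1 (r = 0.999), MAGOHB (0.996) and LDHB (0.996). For FOS they were EP400 (0.991), SLC44A4 (0.986) and HECTD4 (0.982), and for EGR1 EMC10 (0.960), the unnamed gene AP002748.3 (0.958) and UAP1L1 (0.952). The 6 libraries share 1 group difference and the GC trend, and 257 genes reached 0.95 with JUN, so the likeness describes these libraries only.

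Among 12 further bZIP genes of the AP-1 superfamily, 8 were tested. Of these, 0 passed as higher, 1 passed as lower and 7 did not pass (median −0.05, 0.01 with the GC correction). The shares over all tested rows, 12.8% higher and 12.5% lower, are the background for this list and the lists below. MAF, a large Maf factor, fell from 17.1 ± 0.776 to 4.56 ± 0.574 CPM (SD, n = 3; −1.90; edgeR adjusted p = 7.4e-07). JDP2, a repressor that pairs with Jun proteins, was at 0.850 of its control level (−0.23; edgeR adjusted p = 0.16) and passed without shRB 2 (−0.31; adjusted p = 0.038).

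Of 5 EGR family and NAB genes, the 2 that were tested passed in opposite directions. NAB1 and NAB2 encode corepressors that bind EGR proteins. NAB1 fell from 15.6 ± 1.96 to 9.80 ± 2.22 CPM (−0.68; edgeR adjusted p = 0.0083; 0.063 without shCON 1), and NAB2 rose from 7.20 ± 0.743 to 10.7 ± 1.35 CPM (0.54; edgeR adjusted p = 0.016; 0.058 without shCON 3; SD, n = 3). EGR3 and EGR4 were at 0 in all libraries.

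Of 11 tested relatives of IER2 and KLF6, 1 rose, 2 fell and 8 did not pass (median −0.09, 0.03 without shRB 3). The rise was in IER5L (14.1 ± 1.18 to 24.9 ± 4.81 CPM; 0.83; edgeR adjusted p = 0.00093), of whose exons 25.7% and 13.5% are covered by 2 genes on the opposite strand. KLF9, a hormone-responsive member of the KLF family, fell from 126.1 ± 6.20 to 90.6 ± 6.40 CPM (−0.47; edgeR adjusted p = 0.00078). KLF13, chosen after its values were seen, fell by 0.38 on the log2 scale (edgeR adjusted p = 0.011), and by 0.30 without shCON 2, where it did not pass (adjusted p = 0.060).

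Of the immediate early genes outside the 10, 23 were tested: 6 rose, 6 fell and 11 were not called. Over all tested rows, the shares called were 12.8% higher and 12.5% lower. The median of the list was 0.09 (−0.03 with DESeq2 and −0.04 with no filter). The nuclear receptor NR4A2, an immediate early factor, rose from 0.883, 0.703 and 0.653 CPM in shCON to 4.64, 4.98 and 4.44 CPM in shRB (2.55 ± 0.23; edgeR adjusted p = 5.1e-06). All shRB libraries were several-fold above all controls, on 29 and 144 counts in all. RHOB, an immediate early small GTPase, rose from 319.8 ± 4.89 to 506.2 ± 16.3 CPM (0.66; edgeR adjusted p = 1.3e-05). The other rises, all chosen after their values were seen, were in the antiproliferative gene BTG2 (0.69), CSRNP1 (0.61), BHLHE40 (0.54) and the NF-kappaB inhibitor NFKBIA (0.26). NFKBIA lost its call without each library except shRB 2 (adjusted p of 0.10 without shCON 1, 0.11 without shCON 2, 0.14 without shCON 3, 0.11 without shRB 1 and 0.083 without shRB 3).

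The 6 falls of that list, also chosen after their values were seen, included RGS2, which speeds the shut-off of G-protein signals, with 59 counts over shCON and 3 over shRB. Its pooled ratio was 0.0603, with an exact 95% counting interval of 0.0121 to 0.185 (edgeR adjusted p = 0.00016). SIK1, a kinase gene whose reads may be shared with a near-identical copy, was lower by a log2 fold change of −0.84, the kinase gene PLK2 of −0.67, BTG1 of −0.40, the mRNA-decay factor ZFP36L1 of −0.30 and the kinase gene SGK1 of −0.85. LINC01619 on the same strand covers 10.7% of the BTG1 exons, and AC025164.1 on the opposite strand 6.94%, so the BTG1 count is uncertain. ZFP36L1 lost its call without shCON 2 (adjusted p = 0.064), shCON 3 (0.065) or shRB 1 (0.067). SGK1 lost its call without shCON 1 (adjusted p = 0.34), shCON 2 (0.051), shCON 3 (0.064), shRB 1 (0.12) or shRB 3 (0.089).

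**Figure D5:**
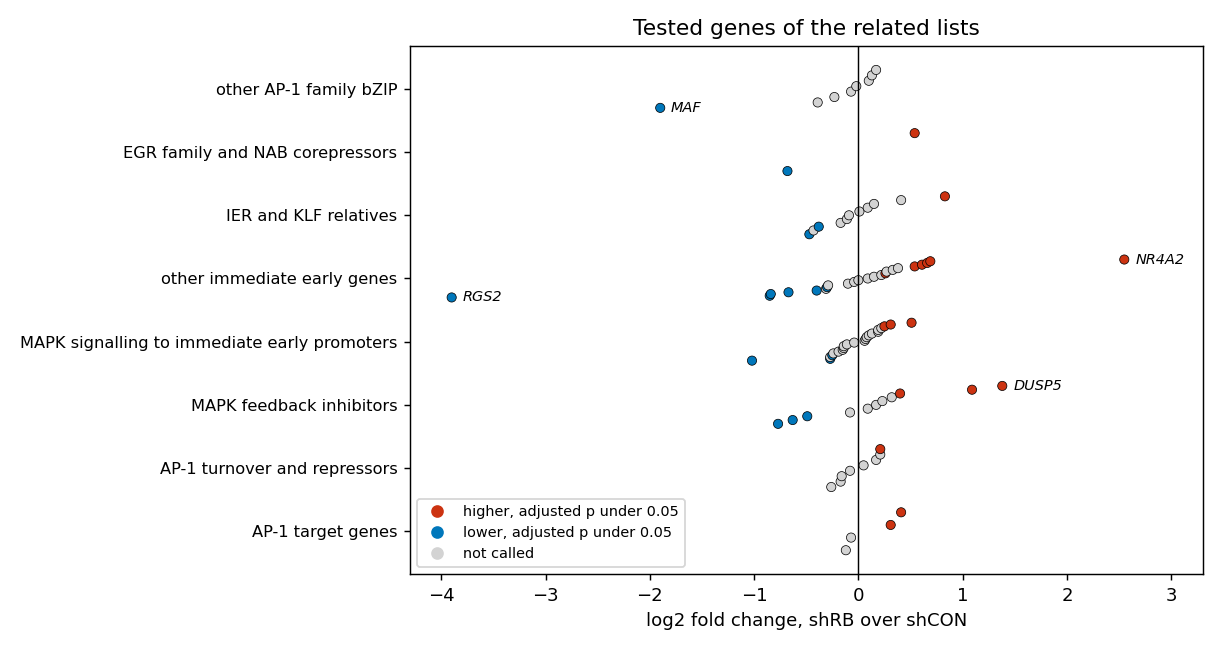
Log2 fold change of shRB over shCON (horizontal axis) for each tested gene of the 8 related lists (rows); red passed as higher, blue as lower, grey did not pass (edgeR, n = 3 per group). NR4A2, at 2.55, and RGS2, at −3.90, lie farthest from 0.

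In the path from Ras and MAP kinases to immediate early promoters, 3 of 22 tested genes rose and 3 fell, with 16 not called and a median of 0.01 (−0.02 with upper-quartile scaling). The kinase gene RPS6KA3 (25.0 ± 1.94 to 35.6 ± 1.02 CPM; 0.51; edgeR adjusted p = 0.0022) had the smallest p and passed in all 15 alternatives. Also called, and chosen after their values were seen, were RPS6KA1 (0.25), RPS6KA2 (−0.27), MAPK3 (−0.25) and MAPK10 (−1.02). RPS6KA1, RPS6KA2 and MAPK3 each lost their call without any 1 library other than shRB 2, with adjusted p of 0.055 to 0.18, 0.056 to 0.086 and 0.067 to 0.17. With 1 library left out, the number of falls was 1 without shCON 1, shCON 2, shCON 3, shRB 1 or shRB 3, and the number of rises was 5 without shRB 2. The transcription factor gene SRF, whose product binds the CArG box, was not called (0.19; adjusted p = 0.16).

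Among genes that restrain MAP kinase signals, 3 of 11 tested genes rose and 3 fell, with 5 not called and a median of 0.17. Over all tested rows, 12.8% passed as higher and 12.5% as lower. The rises of this list were in genes for dual-specificity phosphatases, which inactivate MAP kinases. DUSP4 read 12.9, 12.2 and 11.3 CPM in shCON and 26.3, 27.6 and 24.6 CPM in shRB (1.09; edgeR adjusted p = 1.5e-05), and DUSP5 went from 7.43 ± 1.22 to 18.9 ± 3.02 CPM (1.38; edgeR adjusted p = 3.2e-05). DUSP7, chosen after its values were seen, rose by 0.40 on the log2 scale and lost its call without shCON 1 (0.34; adjusted p = 0.079). The other 5 DUSP genes tested were not called. The falls were in 3 of the 5 Sprouty and SPRED genes of the list, which act upstream near Ras: SPRY1 (−0.77), SPRED1 (−0.63) and SPRED2 (−0.49), all chosen after their values were seen, with edgeR adjusted p of 0.00072, 0.0051 and 0.0055. The others were too low to be tested. SPRY2 had 26 counts over shCON and 37 over shRB, with every shRB library above every control in CPM (pooled ratio 1.69, exact 95% counting interval 0.994 to 2.90), and SPRY4 had 12 and 8 counts, with overlapping groups. DUSP1, the immediate early phosphatase of this list, was not called (0.17; adjusted p = 0.26).

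Among genes for turnover and modification of AP-1 proteins, ITCH, a ubiquitin ligase that acts on Jun proteins, was not called at −0.26 (edgeR adjusted p = 0.052) and passed with the GC correction (−0.18; adjusted p = 0.022).

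Of 16 known AP-1 target genes only 4 had enough counts to be tested: 2 rose and 0 fell, with a median of 0.12 (−0.07 with DESeq2). Heme oxygenase HMOX1 rose from 16.5 ± 1.56 to 21.7 ± 1.47 CPM (0.41; edgeR adjusted p = 0.019) and the growth factor gene VEGFA from 42.4 ± 3.32 to 52.0 ± 3.52 CPM (0.31; edgeR adjusted p = 0.031; SD, n = 3). HMOX1 lost its call without shCON 1 (adjusted p = 0.11), shCON 2 (0.067) or shRB 1 (0.051), and VEGFA without shCON 1 (0.15), shCON 2 (0.095), shRB 1 (0.12) or shRB 3 (0.067). The protease genes MMP1, MMP3 and PLAU and the cytokine gene IL6 were at 0 in all 6 libraries.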

How the data were processed

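RNA was sequenced from 3 shCON and 3 shRB libraries, made with an Illumina TruSeq kit per the labels' protocols. The values are raw read counts as the authors deposited them, whole numbers for each transcript ID in each library. The submitters' processing notes list STAR, HOMER, edgeR and hg19 with no role for each. The annotation, counting options and strand use are not stated in the sources. GENCODE release 29, on another build, gave names, chromosomes, gene order, lengths, GC content and exon overlap (22182 of 22279 IDs matched; the 97 others, 0.377% of counts, stayed in library totals).

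Rows were kept by filterByExpr (minimum count 10, minimum total 15), scaled by TMM and tested with edgeR 4.0.16 in R 4.3.3 (quasi-likelihood F test, group as the only term). Adjustment was by Benjamini-Hochberg over all tested rows, at 0.05. The SE is the log2 fold change divided by the square root of F. CPM uses TMM-scaled totals. The fit was tested on simulated data, in which it recovered 34% of 50 genes changed 1.25-fold and 86% of 50 changed 1.5-fold. Of 174 calls there, 14 were false. Genes as low as FOS, FOSB and EGR1 were not given a change. Alternatives were DESeq2 1.42.0, limma-voom (limma 3.58.1), RLE and upper-quartile factors, no filter and a stricter one (1 CPM in 3 libraries), each library left out, the replicate number as a block, and an offset from a smooth of each library's log ratio on GC content (lowess span 0.3), alone and with the block.

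The members and lists were chosen with earlier results of these data known. Named genes are the 10 members, RB1 and the 2 tested genes with the smallest p in each related list; the text marks any other gene as chosen after seeing its values. Some genes of the lists were not analysed here, and some results are not reported here.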

Additional observations from a re-analysis of the deposited data

How the results depend on the processing

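JUN and FOSL2 kept their direction and their call in all 15 alternatives, and RB1 ranged from −3.56 to −3.27 on the log2 scale. JUNB, JUND, FOS, FOSB and KLF6 kept their sign and were not called in any. Members passing as higher numbered 3 with the GC offset, 3 with the replicate block, 3 with the GC offset and the block together and 2 with no filter, and from 1 to 2 with 1 library left out. IER2 passed in the first 3 of these and with no filter, and ATF3 in the first 3 and without shRB 2. Members passing as lower numbered 1 throughout. Leaving out 1 library gave the members a median between 0.08 (without shRB 2) and 0.21. Over all tested rows, 2255 passed as higher and 2324 as lower with the GC offset. With 1 library left out, 863 to 2074 passed as higher and 912 to 1956 as lower. The replicate block gave 2202 higher and 2294 lower, and 2364 and 2431 together with the GC offset. Libraries with the same replicate number deviated from their group means with correlations of 0.235, 0.352 and −0.000318 across genes, so the numbers were not taken to pair the libraries. The cause of these shifts was not tested. Counts of FOS, FOSB and EGR1, at most 30 per library, limit what can be seen of them.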
